A study of Mus musculus with 6 samples.

Results

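Cell cycle and DNA replication genes were followed in the ear skin of mice with an endothelial deletion of Vegfr2. None of the 45 genes examined passed the test of deleted against control mice across all genes, where 1.76% of all genes tested passed. The 45 genes were taken by symbol from a list of names, with no measured value in the rule. The list was chosen with earlier results of these data known. All 45 were found among the 18422 genes of the deposited table and were counted deeply enough to be tested. The list was split by role into 26 mitotic genes, which act from late G2 phase to cell division, and 19 S-phase genes, which act from the entry into S phase to the copying of DNA. The mitotic genes varied together between libraries of the same genotype, whereas the S-phase genes varied less across the same libraries.

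RNA was sequenced from whole ear skin at postnatal day 21, in 3 samples labelled Vegfr2ecko (endothelial knockout, called ecko here) and 3 from littermate controls. Both groups had received tamoxifen, the drug that switches on the deletion, so its exposure was shared. Vegfr2, with the official symbol Kdr, encodes the main receptor for VEGF-A on endothelial cells. The Cre line that drives the deletion, whether the controls carried it, and which of the series' tamoxifen schedules was used are not given in the sources used here. The labels name no animals, so the p-values cover the spread among these samples alone, which may be partly technical.

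Libraries held between 17255416 and 18054696 estimated read counts, and scaling factors (TMM) ran from 0.991 to 1.00. Kdr was at 2.59 ± 0.688 CPM (counts scaled to a common library size) in ecko skin and 30.1 ± 3.27 CPM in control skin (SD, n = 3 each). The tissue's own markers were abundant, with the 7 basal keratinocyte markers summing to between 10360 and 10913 CPM in ecko skin and between 9895 and 11267 CPM in control skin. Y-linked reads numbered 4068, 4390 and 36 in ecko 1 to 3, against 3858, 3712 and 24 in controls 1 to 3, so ecko 3 and control 3 were taken as female and the 4 other libraries as male. Over all 14866 genes tested, 102 were higher (0.686%) and 160 lower (1.08%) in ecko skin at an adjusted p under 0.05 (edgeR quasi-likelihood test, Benjamini-Hochberg adjustment), or 1.76% in all. These counts changed when 1 library was left out, to 22 higher and 34 lower without ecko 2 and 165 and 242 without control 3. They fell without any library but control 3, and a fit with fewer libraries also has less power.

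A dividing cell passes through 2 waves of transcription. The first, driven by E2F factors once the retinoblastoma proteins are phosphorylated, supplies origin licensing proteins, the replicative helicase and enzymes of nucleotide synthesis. The later one is driven by the MuvB complex with B-MYB and FOXM1, acts largely through a promoter element called the CHR and through CCAAT boxes bound by NF-Y, and supplies the cyclins, kinases, motors and kinetochore proteins of mitosis. In young skin most dividing cells lie in the basal epidermis and the hair follicle, with smaller numbers in dermis, vessels and immune cells. In whole tissue, fewer cells of a type and less RNA per cell cannot be told apart.

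The upstream sequences of the genes are shown for the 2 classes into which the list was split by role. The part of these sequences in the levels below was not tested. Windows of 250 bases before a gene start were taken from the RefSeq promoter table of GRCm38.p6, which held 23 windows for 21 of the 26 mitotic genes and 18 windows for 16 of the 19 S-phase genes. Ccna2, Aurkb, Kif20a, Tpx2, Foxm1, Mcm4, Gins2 and Ccne2 were not matched. Of the 41 windows, 20 lay outside the annotated span of their gene and the rest overlapped it. The motifs searched, on both strands, were TTTGAA for the CHR, CCAAT for the CCAAT box, and TTTCCCGC, TTTGGCGC, TTTCGCGC and TTTGCCGC for E2F sites. E2F letters on opposite strands can overlap each other.

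The 4 mitotic windows printed belong to Ccnb1 (cyclin B1, chr13:100786487-100786736, minus strand), Kif11 (a spindle motor, chr19:37376132-37376381, plus strand), Cdk1 (the mitotic kinase, chr10:69352913-69353162, minus strand) and Cdc20 (an activator of the anaphase-promoting complex, chr4:118437344-118437593, minus strand). The 3 S-phase windows belong to Mcm6 and Mcm2 (helicase subunits, chr1:128359706-128359955 and chr6:88898781-88899030, both minus strand) and to Pcna (the replication clamp, chr2:132253181-132253430, minus strand). All lie just before the gene start and are written 5′ to 3′ on the gene's strand, with motif matches in capitals. They were chosen after the matches were seen.
Ccnb1: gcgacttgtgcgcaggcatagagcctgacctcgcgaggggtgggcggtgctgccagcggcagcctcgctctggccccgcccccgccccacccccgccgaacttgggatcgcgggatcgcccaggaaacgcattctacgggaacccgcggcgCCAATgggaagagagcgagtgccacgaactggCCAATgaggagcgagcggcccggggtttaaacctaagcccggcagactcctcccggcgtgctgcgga
Kif11: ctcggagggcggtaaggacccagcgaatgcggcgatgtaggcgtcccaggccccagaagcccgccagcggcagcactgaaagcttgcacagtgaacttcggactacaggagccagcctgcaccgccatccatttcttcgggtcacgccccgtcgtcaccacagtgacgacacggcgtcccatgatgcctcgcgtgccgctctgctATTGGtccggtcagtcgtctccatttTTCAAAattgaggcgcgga
Cdk1: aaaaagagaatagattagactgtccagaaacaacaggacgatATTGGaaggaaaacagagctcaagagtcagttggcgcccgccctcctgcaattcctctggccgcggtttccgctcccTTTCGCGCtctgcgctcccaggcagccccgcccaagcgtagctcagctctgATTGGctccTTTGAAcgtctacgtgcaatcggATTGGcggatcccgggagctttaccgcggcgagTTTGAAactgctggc
Cdc20: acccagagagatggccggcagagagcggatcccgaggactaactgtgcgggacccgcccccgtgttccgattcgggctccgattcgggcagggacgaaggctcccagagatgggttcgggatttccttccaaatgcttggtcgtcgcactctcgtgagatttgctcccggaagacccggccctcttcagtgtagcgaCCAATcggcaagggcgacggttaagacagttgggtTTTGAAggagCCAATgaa
Mcm6: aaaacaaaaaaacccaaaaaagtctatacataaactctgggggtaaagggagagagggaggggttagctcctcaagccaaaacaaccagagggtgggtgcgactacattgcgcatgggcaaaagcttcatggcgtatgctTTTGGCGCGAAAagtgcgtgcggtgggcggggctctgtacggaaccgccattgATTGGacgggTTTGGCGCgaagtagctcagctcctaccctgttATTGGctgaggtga
Mcm2: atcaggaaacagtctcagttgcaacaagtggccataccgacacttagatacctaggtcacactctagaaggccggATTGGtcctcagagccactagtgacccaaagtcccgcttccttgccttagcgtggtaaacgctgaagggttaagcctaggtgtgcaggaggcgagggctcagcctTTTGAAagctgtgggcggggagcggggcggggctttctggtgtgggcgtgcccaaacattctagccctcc
Pcna: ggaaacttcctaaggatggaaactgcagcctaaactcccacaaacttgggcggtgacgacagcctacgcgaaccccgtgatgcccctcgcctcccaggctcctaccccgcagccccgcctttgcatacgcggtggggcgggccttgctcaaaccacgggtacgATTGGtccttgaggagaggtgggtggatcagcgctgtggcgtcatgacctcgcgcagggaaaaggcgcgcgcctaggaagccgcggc

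The letters TTTGAA stood in 10 of the 23 mitotic windows (43.5%) and in 1 of the 18 S-phase windows (5.56%), that of Mcm2, against 16.0% of all 32851 windows in the table. The CCAAT letters stood in 20 mitotic windows (87.0%) and 11 S-phase windows (61.1%), against 33.8% of all windows. An E2F match was found in 1 mitotic window (4.35%), that of Cdk1, and in 6 S-phase windows (33.3%), against 1.86% of all windows. Kif11, Cdk1 and Cdc20 thus carried both CHR and CCAAT letters, Ccnb1 carried 2 CCAAT matches and no TTTGAA, and Mcm6 carried 3 E2F matches, of which 2 overlapped. Windows of 1 gene share sequence, and a match describes letters and no binding. Only the letters listed above were searched, so a window without a match may hold another form of the motif.

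**Figure D1:**
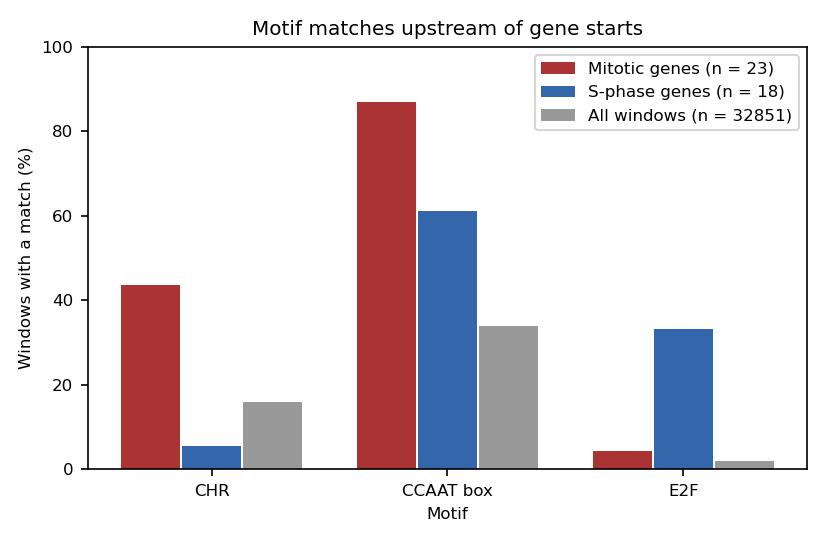
Share of upstream windows of 250 bases (percent) that held each motif, for windows of mitotic genes (n = 23), of S-phase genes (n = 18) and all windows of the RefSeq table (n = 32851). CHR letters were found in 43.5% of mitotic and 5.56% of S-phase windows, and E2F letters in 4.35% and 33.3%.

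No member passed the threshold of 0.05. With edgeR, 0 of the 26 mitotic and 0 of the 19 S-phase genes were called, where 1.76% of all genes tested were called, and DESeq2 and limma-voom also called 0 of the 45. Before adjustment, the edgeR p fell under 0.05 for 2 of the 45, Ccnb1 and Cenpe, against 15.4% of all genes tested. Both were higher in ecko skin, as were 7.41% of all genes at that p, and no member was lower at that p, as were 7.95% of all genes. DESeq2 gave 1 such gene and limma-voom 2. The edgeR count changed when 1 library was left out. It was 9 (all mitotic) without ecko 1, 3 without control 2, 1 without control 1 or control 3, and 0 without ecko 2 or ecko 3. The groups overlapped in CPM for 44 of the 45 genes, and in the 1 exception, Tk1, the ecko libraries lay below the controls, a pattern found in 10.9% of all genes tested (21.0% for either direction). The 95% intervals of the log2 fold changes, ecko over control, lay within 1 log2 unit of 0 for all 45 genes and within 0.5 for 36. A p above the threshold does not show that the genotypes had equal levels, and the intervals give what these 6 libraries leave possible.

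**Figure D2:**
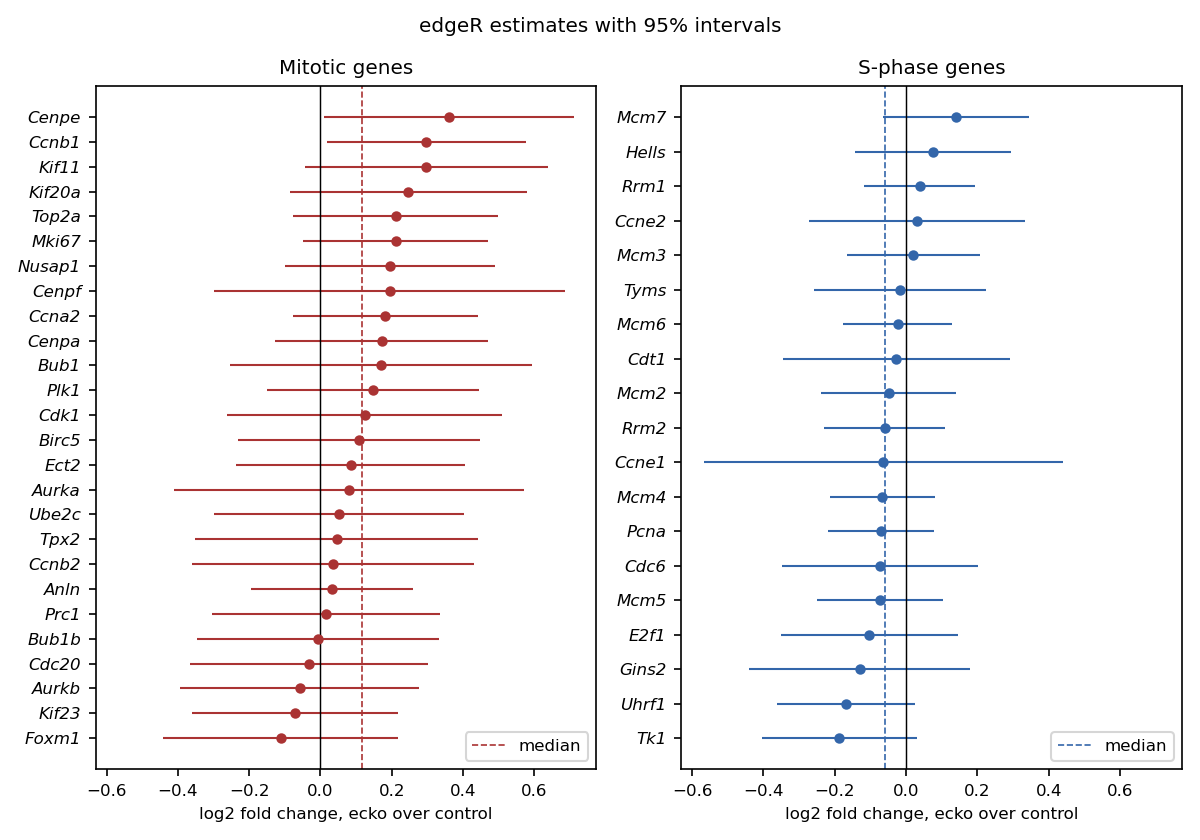
The log2 fold change (ecko over control, edgeR) of each mitotic gene (left) and each S-phase gene (right), with 95% intervals as bars and the median of each group as a dashed line, at 0.12 and -0.06. Only the intervals of Ccnb1 and Cenpe leave out 0.

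The estimates of the 2 classes lay on different sides of 0. Of the mitotic genes, 21 had a log2 fold change above 0 and 5 below, with a median of 0.12 and a range of -0.11 to 0.36. Of the S-phase genes, 5 were above 0 and 14 below, with a median of -0.06 and a range of -0.19 to 0.14. Over all genes tested, 49.5% lay above 0 and the median was 0.00. The mitotic median rested on single libraries, at 0.24 without ecko 1 and 0.02 without control 3. The S-phase median was 0.00082 without control 2, with 10 of 19 genes above 0, -0.016 without ecko 3 and -0.097 without ecko 1. The mitotic median was 0.064 without ecko 2. It was -0.04 in the 4 male libraries alone, a setting chosen after the data were seen.

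Summed over the class, mitotic genes made up 416, 542 and 546 CPM in ecko 1 to 3, against 485, 504 and 392 CPM in controls 1 to 3. Ecko 1 and control 3 were the low libraries, and the groups overlapped. The means were 501 ± 73.7 CPM in ecko skin and 460 ± 60.2 CPM in control skin (SD, n = 3 each). S-phase genes summed to 586, 584 and 556 CPM in ecko 1 to 3, against 598, 613 and 551 CPM in controls 1 to 3, with means of 575 ± 17.1 CPM in ecko skin and 587 ± 32.1 CPM in control skin (SD, n = 3 each). For both classes the difference between the group means was smaller than the SD of either group.

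The contrast of the classes within a library removes what both share. The mitotic sum was 0.709, 0.928 and 0.982 of the S-phase sum in ecko 1 to 3, against 0.811, 0.823 and 0.710 in controls 1 to 3. The lowest ratios were those of ecko 1 and control 3, which were nearly equal, and the highest were those of ecko 2 and ecko 3. As mean log2(CPM + 1) around each gene's mean, the S-phase genes minus the mitotic genes stood at 0.21, -0.17 and -0.25 in ecko 1 to 3, against 0.03, 0.00 and 0.19 in controls 1 to 3. The ecko mean minus the control mean was -0.14 log2 units, with a pooled SD of 0.19 between libraries of a group. In the 4 male libraries alone that difference was 0.00.

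**Figure D3:**
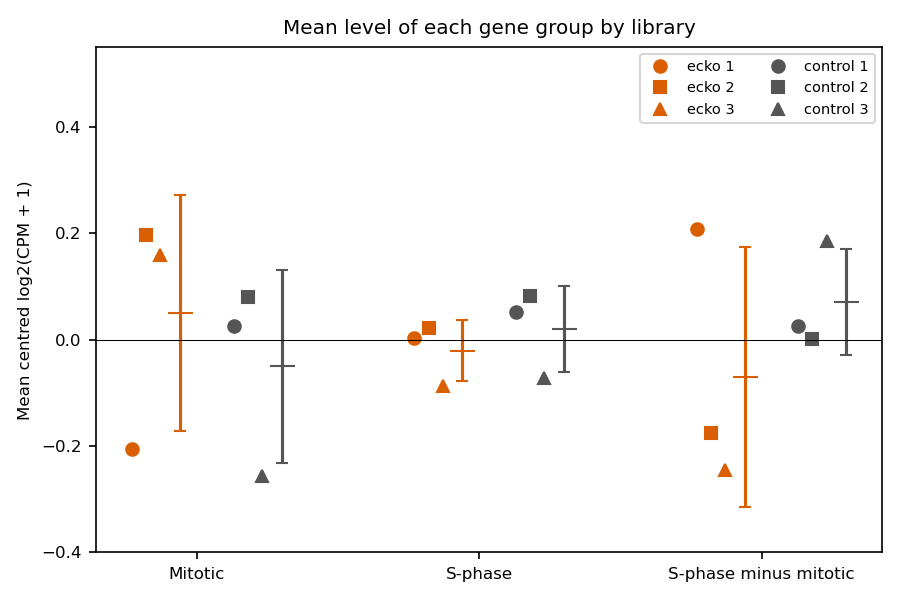
Mean log2(CPM + 1) around each gene's mean over the 6 libraries, for mitotic genes, S-phase genes and their difference, with 1 point per library (orange ecko, grey control) and the mean ± SD of each group (n = 3) as bars. Ecko 1 and control 3 lie at -0.21 and -0.26 for mitotic genes, while every library lies between -0.09 and 0.08 for S-phase genes.

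The low level of ecko 1 and control 3 was shared by nearly every mitotic gene. Within the ecko group, ecko 1 was the lowest library for 25 of the 26 mitotic genes, with Aurkb as the exception, and within the controls control 3 was the lowest for all 26. Both held for 25 of 26 mitotic genes (96.2%), 6 of 19 S-phase genes (31.6%) and 12.0% of all genes tested. Among the 19 S-phase genes ecko 1 was the lowest ecko library for 6 (31.6%), where 35.1% of all genes had it lowest, and control 3 was the lowest control for 16 (84.2%), where 35.6% of all genes had it lowest. Control 3 was thus low in both classes, ecko 1 in the mitotic class and ecko 3 in the S-phase class. For S-phase genes, mean log2(CPM + 1) around the gene means was -0.09 in ecko 3, -0.07 in control 3 and 0.00 in ecko 1. Ecko 3 held the lowest value of all libraries for 9 of the 19 S-phase genes, ecko 1 for 5 and control 3 for 4. The shares of all genes for these counts of the lowest value were not computed. The highest library was ecko 2 or ecko 3 for 23 of the 26 mitotic genes and for 3 of the 19 S-phase genes. Replicates have no order, so the pattern says which libraries were low and not that values rise along the numbers.

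**Figure D4:**
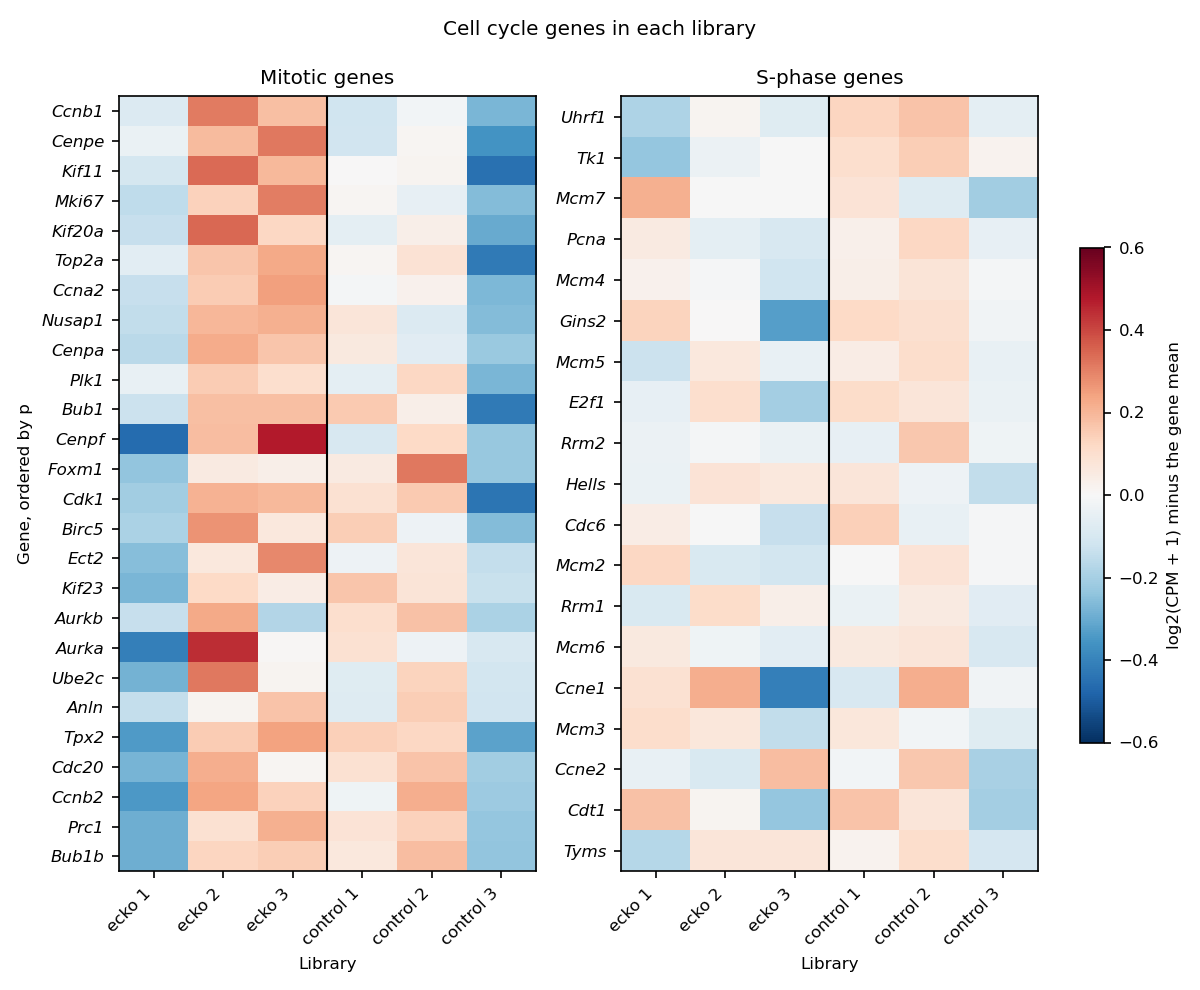
Level of each gene in each library as log2(CPM + 1) minus the gene's mean (colour), ecko libraries left of controls, with genes ordered by their p. The columns of ecko 1 and control 3 are blue for nearly all mitotic genes (ecko 1 and control 3 hold the lowest value of all 26). In the S-phase panel the differences are smaller. There control 3 is the lowest control for 16 of 19 genes, and ecko 3 the lowest of all libraries for 9.

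The spread within a genotype was wider for mitotic genes. The median within-group SD of log2(CPM + 1) was 0.22 over the mitotic genes and 0.10 over the S-phase genes, where it was 0.10 over the 10768 genes tested whose mean level fell in the members' range of 3.57 to 106 CPM. The highest library exceeded the lowest by a median of 1.5 times in mitotic genes (range 1.25 to 2.03) and 1.23 times in S-phase genes (range 1.13 to 1.78). The widest were Cenpf and Aurka among mitotic genes and Ccne1 among S-phase genes. Ccne1 was also the most weakly counted, with 43 reads in ecko 3, for which counting error alone gives a 95% interval of 31.1 to 57.9 (exact Poisson). The 1903 reads of Pcna in ecko 1 had an interval of 1818 to 1990. Such intervals cover counting error only.

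Per kilobase of annotated exon, the mean over all 6 libraries ran from 0.716 CPM per kb for Cenpe to 44.3 CPM per kb for Pcna. Next to Pcna came Mcm6, at 14.2 CPM per kb, Rrm2, at 11.2, and Mcm7, at 11.1. The mitotic gene with the highest level per kilobase was Cdc20, at 9.08 CPM per kb. These use the union of GENCODE exons, which can be longer than the transcripts made in skin.

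Among the mitotic genes, those of mitotic entry come first. Ccnb1, cyclin B1, which activates Cdk1 (GRCm38.p6, chromosome 13, bases 100778739 to 100786486), had 14.5, 19.4 and 17.6 CPM in ecko 1 to 3, against 14.1, 15.3 and 12.6 CPM in controls 1 to 3. Ecko 1 lay among the controls and the other ecko libraries lay above them. Its log2 fold change was 0.30 (SE 0.12, 95% interval 0.02 to 0.58, edgeR adjusted p = 0.295), the smallest p of all members. Cdk1, the kinase that drives mitosis, had 16.0, 21.7 and 21.5 CPM in ecko 1 to 3, against 19.9, 20.9 and 13.5 CPM in controls 1 to 3, so each group had 1 low library (log2 fold change 0.12, interval -0.26 to 0.51). Without control 3 the estimate for Cdk1 was -0.048. The partner cyclins Ccnb2 (0.04, interval -0.36 to 0.43) and Ccna2 (0.18, interval -0.08 to 0.44) had intervals across 0, as had the kinase genes Plk1 (0.15, interval -0.15 to 0.45) and Aurka (0.08, interval -0.41 to 0.57). Foxm1, the transcription factor of the mitotic class, had the lowest estimate among mitotic genes (-0.11, interval -0.44 to 0.22), with 14.8, 18.3 and 18.1 CPM in ecko 1 to 3, against 18.3, 22.1 and 14.9 CPM in controls 1 to 3.

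Mki67, the gene of the proliferation antigen Ki-67 that coats mitotic chromosomes (chromosome 7 from 135689784 to 135716450), had 51.2, 62.8 and 70.7 CPM in ecko 1 to 3, against 57.4, 54.9 and 47.3 CPM in controls 1 to 3. Ecko 1 lay below 2 of the controls and the other ecko libraries above all of them. Its log2 fold change was 0.21 (SE 0.12, 95% interval -0.05 to 0.47, edgeR adjusted p = 0.429). It stood at 0.33 without ecko 1, 0.10 without ecko 3 and 0.13 without control 3. Top2a, topoisomerase II alpha, which untangles sister chromatids (chromosome 11 from 98992947 to 99024199), had 55.3, 65.0 and 67.9 CPM in ecko 1 to 3, against 58.3, 61.4 and 42.9 CPM in controls 1 to 3 (log2 fold change 0.21, 95% interval -0.08 to 0.50, SE 0.13, edgeR adjusted p = 0.483). Here control 3 stood apart from the other 5 libraries, and without it the estimate was 0.07.

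The kinetochore and checkpoint genes follow. Cenpe, a kinesin that links chromosomes to the spindle (chromosome 3 from 135212563 to 135273540), had 5.91, 7.08 and 7.83 CPM in ecko 1 to 3, against 5.54, 6.15 and 4.54 CPM in controls 1 to 3. The ecko values were higher except that ecko 1 lay below control 2. Its log2 fold change of 0.36 was the largest of the 45 (SE 0.16, 95% interval 0.01 to 0.71, edgeR adjusted p = 0.311). Cenpf, a large kinetochore protein gene, had 7.71, 12.6 and 15.7 CPM in ecko 1 to 3, against 10.2, 12.0 and 9.24 CPM in controls 1 to 3, and had the largest within-group SD of log2(CPM + 1) of all members, at 0.36. The centromeric histone gene Cenpa (0.17, interval -0.13 to 0.47) and the checkpoint kinase genes Bub1 (0.17, interval -0.25 to 0.59) and Bub1b (-0.01, interval -0.35 to 0.33) had intervals on both sides of 0.

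Of the spindle and cytokinesis genes, Kif11, whose product pushes spindle poles apart (chromosome 19 from 37376382 to 37421863), had 19.8, 27.3 and 24.5 CPM in ecko 1 to 3, against 21.4, 21.6 and 15.4 CPM in controls 1 to 3. It repeated the pattern of 1 low library in each group, and its estimate was 0.15 without control 3 (log2 fold change 0.30, SE 0.15, 95% interval -0.04 to 0.64, edgeR adjusted p = 0.398). Kif20a, a motor of the central spindle, had 10.4, 15.0 and 12.7 CPM in ecko 1 to 3, against 11.1, 11.9 and 9.20 CPM in controls 1 to 3 (log2 fold change 0.25, 95% interval -0.09 to 0.58, SE 0.15, edgeR adjusted p = 0.479). Ecko 2 and ecko 3 lay above all controls and ecko 1 below 2 of them. The estimate was 0.11 without ecko 2 and 0.15 without control 3. Its counts were not all whole numbers and its span overlaps Brd8 and Cdc23, so reads may be divided between genes. The remaining spindle and midzone genes Kif23, Prc1, Tpx2, Nusap1, Aurkb and Birc5 had estimates between -0.07 for Kif23 and 0.20 for Nusap1. The cytokinesis genes Anln and Ect2 stood at 0.03 and 0.09. Cdc20 and Ube2c, which start anaphase by marking mitotic proteins for destruction, stood at -0.03 and 0.05. For all of these the intervals held 0, and adjusted p ran from 0.295 to 0.990 over the 26 mitotic genes.

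The S-phase genes begin with the decision to enter S phase. E2f1, the activating transcription factor of the class, had 11.3, 12.7 and 10.1 CPM in ecko 1 to 3, against 12.8, 12.4 and 11.4 CPM in controls 1 to 3 (log2 fold change -0.10, 95% interval -0.35 to 0.15). The groups overlapped. Ccne1 and Ccne2 encode the E-type cyclins that act with Cdk2, and stood at -0.06 (interval -0.57 to 0.44) and 0.03 (interval -0.27 to 0.33). Ccne1 had 3.82, 4.26 and 2.4 CPM in ecko 1 to 3, against 3.23, 4.27 and 3.46 CPM in controls 1 to 3, and its estimate was 0.15 without ecko 3.

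The licensing and helicase genes come next. Mcm2, a subunit of the ring-shaped helicase that opens DNA at origins, had 30.6, 26.2 and 25.8 CPM in ecko 1 to 3, against 27.9, 29.6 and 27.8 CPM in controls 1 to 3. Its highest value and its lowest value both came from ecko libraries (log2 fold change -0.05, 95% interval -0.24 to 0.14). Mcm7, another subunit (chromosome 5 from 138164583 to 138172111), had 56.8, 48.8 and 48.9 CPM in ecko 1 to 3, against 51.8, 46.3 and 42.1 CPM in controls 1 to 3. It had the highest estimate of the S-phase genes (0.14, SE 0.09, 95% interval -0.06 to 0.34, edgeR adjusted p = 0.524), at 0.063 without ecko 1, 0.070 without control 3 and 0.22 without control 1. Mcm4 had 38.4, 37.6 and 34.7 CPM in ecko 1 to 3, against 38.7, 39.8 and 37.4 CPM in controls 1 to 3 (log2 fold change -0.07, 95% interval -0.21 to 0.08, SE 0.07, edgeR adjusted p = 0.702). It varied least of the members within groups, with an SD of 0.06 on the log2 scale. Mcm3, Mcm5 and Mcm6 stood between -0.07 and 0.02. The licensing factors Cdc6 (-0.07, interval -0.35 to 0.20) and Cdt1 (-0.03, interval -0.35 to 0.29), and Gins2 of the active helicase (-0.13, 95% interval -0.44 to 0.18, SE 0.14, edgeR adjusted p = 0.725), also had intervals across 0. Cdt1 and Gins2 varied more than the other genes of this group, with a within-group SD of 0.20 for Cdt1 and 0.18 for Gins2 on the log2 scale. Gins2 had 9.85, 8.91 and 6.88 CPM in ecko 1 to 3, against 9.76, 9.56 and 8.73 CPM in controls 1 to 3, so its estimate rested on ecko 3 and was 0.0033 without that library.

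Pcna, the sliding clamp of the DNA polymerases (chromosome 2 from 132249286 to 132253180), had 110, 102 and 99.3 CPM in ecko 1 to 3, against 109, 116 and 103 CPM in controls 1 to 3. The libraries overlapped and the interval was narrow (log2 fold change -0.07, SE 0.07, 95% interval -0.22 to 0.08, edgeR adjusted p = 0.685). Of the nucleotide genes, Tk1, thymidine kinase 1 (chromosome 11 from 117815519 to 117826087), had 14.4, 16.7 and 17.1 CPM in ecko 1 to 3, against 18.4, 19.1 and 17.4 CPM in controls 1 to 3. This was the 1 gene without overlap, although ecko 3 and control 3 were close, and the lowest estimate of the 45 (-0.19, SE 0.10, 95% interval -0.40 to 0.03, edgeR adjusted p = 0.401). Without ecko 1 it stood at -0.12. Its counts were not all whole and its span overlaps Afmid, so reads may be divided between genes. The ribonucleotide reductase genes Rrm1 and Rrm2 stood at 0.04 (interval -0.12 to 0.19) and -0.06 (interval -0.23 to 0.11), and the thymidylate synthase gene Tyms at -0.02 (interval -0.26 to 0.22).

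Uhrf1, which guides copying of DNA methylation behind the fork (chromosome 17 from 56303337 to 56323486), had 27.0, 31.2 and 29.3 CPM in ecko 1 to 3, against 33.9, 34.9 and 29.6 CPM in controls 1 to 3. Control 3 lay among the ecko libraries and the other controls lay above all of them. Its p was the smallest of the S-phase genes (log2 fold change -0.17, SE 0.09, 95% interval -0.36 to 0.02, edgeR adjusted p = 0.395). Hells, a chromatin remodeller, stood at 0.08 (interval -0.14 to 0.30). Of the 45 genes, 39 had whole counts in all libraries. The spans of 17 overlap another annotated gene, and strand was not stated for the counting.

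The female and male pups were read apart because control 3 and ecko 3 were the female libraries. Between these 2 libraries all 26 mitotic genes were higher in ecko 3 than in control 3, with a median log2 ratio of 0.46, and 6 of 19 S-phase genes were higher, with a median of -0.03. Between the male libraries 12 of 26 mitotic genes had a higher mean in the 2 ecko than in the 2 control libraries, with a median of -0.04, and 5 of 19 S-phase genes did, with a median of -0.05. The male ecko libraries lay on both sides of the male controls. Mitotic sums were 416 and 542 CPM in ecko 1 and 2, against 485 and 504 CPM in controls 1 and 2. With 1 female library in each group the female values have no replicate. Control 3 was the lowest control for all 26 mitotic genes, so the female count repeats that pattern in part. The shares of all genes for these counts were not computed. The difference itself was tested as the interaction of genotype and sex in edgeR, a test added after the pattern was seen. It called 0 of the 26 mitotic and 0 of the 19 S-phase genes (smallest adjusted p 0.663, for Top2a), where 0.0336% of all genes tested were called. Before adjustment its p lay under 0.05 for 8 of the 26 mitotic genes and 1 of the 19 S-phase genes, Ccne2, all with the male effect below the female effect, as in 2.92% of all genes tested, and none had the male effect above, as in 3.08%. The mitotic genes varied together between libraries, so these 8 genes are not separate observations. Sex cannot be told apart from ecko 3 and control 3 as single libraries. The part of the other libraries in this pattern was not tested.

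Other genes of the pathway were read from 10 further lists. Of 191 genes tested 1 was called, where 1.76% of all genes were, and 8 had an edgeR p under 0.05 before adjustment, where 15.4% of all genes had one. The gene called was Btg2, an antiproliferative gene counted among p53 targets, which rose to 168 ± 25.5 CPM in ecko skin, against 113 ± 13.8 CPM in control skin (SD, n = 3 each). Its log2 fold change was 0.57 with an SE of 0.12 (adjusted p = 0.0422 by edgeR). The call was lost when any library but control 3 was left out (adjusted p 0.0629 to 0.136), and with the sex term (0.0599) and in male libraries alone (0.0526). The log2 fold change was 0.44 to 0.65 when a library was left out, 0.57 with the sex term and 0.73 in male libraries. The 17 p53 targets had a median of -0.06, with 8 above 0.

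The 3 lists of other mitotic genes had the same low libraries as the mitotic members. Mean log2(CPM + 1) around the gene means was -0.12, 0.10 and 0.05 in ecko 1 to 3, against 0.07, 0.07 and -0.16 in controls 1 to 3, for 23 genes of the kinetochore and spindle checkpoint. For 22 genes of spindle motors and the centrosome it was -0.19, 0.11 and 0.17 in ecko 1 to 3, against 0.01, 0.08 and -0.17 in controls 1 to 3. For 24 genes of condensin and of mitotic entry and exit it was -0.11, 0.11 and 0.06 in ecko 1 to 3, against 0.04, 0.05 and -0.14 in controls 1 to 3. Ecko 1 and control 3 were both lowest in their groups for 46 of these 69 genes (66.7%), against 12.0% of all genes tested. None passed, and the smallest p belonged to Smc4, a condensin subunit gene, at 52.5 ± 5.57 CPM in ecko skin and 43.0 ± 0.656 CPM in control skin (SD, n = 3 each), with a log2 fold change of 0.29, an SE of 0.08 and an edgeR adjusted p of 0.126. The checkpoint kinase gene Ttk (-0.22), the adaptor gene Zwint (0.14), the spindle gene Hmmr (0.40), the microtubule gene Ckap5 (0.10) and the kinase gene Wee1, which holds Cdk1 back (-0.16), were the others with the smallest p of their lists, at adjusted p between 0.309 and 0.588.

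**Figure D5:**
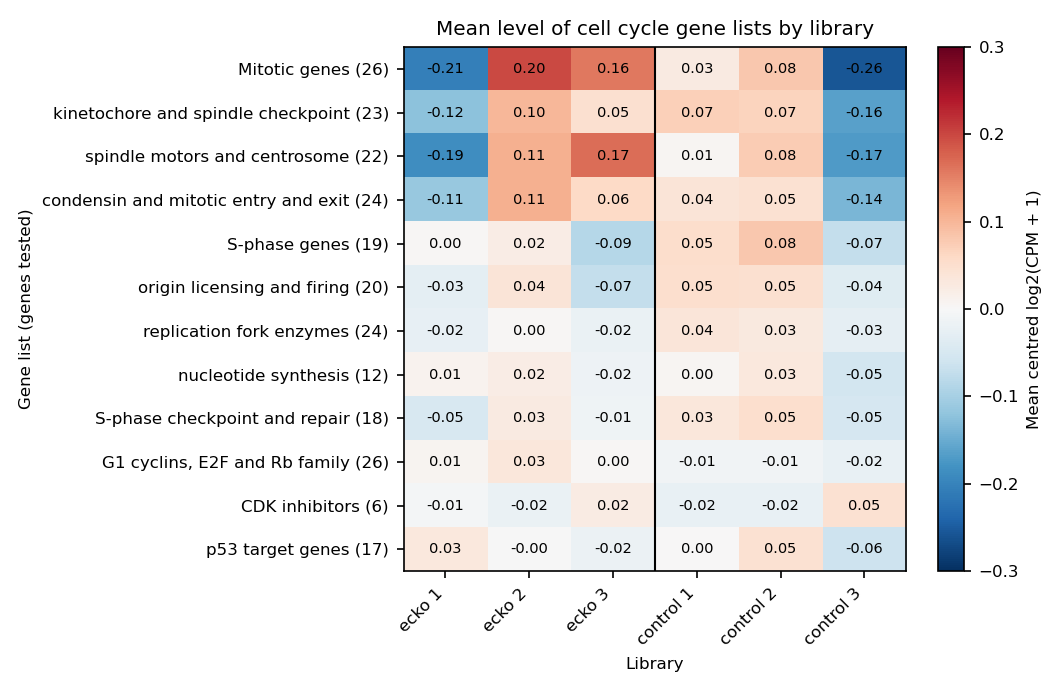
Mean log2(CPM + 1) around the gene means, by library, for the mitotic and S-phase genes and 10 further cell cycle lists (genes tested in brackets), ecko libraries left of controls. The 4 mitotic lists lie between -0.26 and -0.11 in ecko 1 and control 3, and the lists of DNA replication lie between -0.09 and 0.08 in all libraries.

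In 4 further lists, of origin licensing, fork enzymes, nucleotide synthesis and S-phase repair, ecko 1 and control 3 were both lowest in their groups for 20 of 74 genes (27.0%), against 12.0% of all genes tested. Control 3 was the lowest control for 59.5% of the 74, against 35.6% of all genes, and ecko 1 the lowest ecko library for 44.6%, against 35.1%. None passed. The smallest p was that of Pold2, a subunit of DNA polymerase delta, at 21.6 ± 1.92 CPM in ecko skin and 26.3 ± 1.24 CPM in control skin (SD, n = 3 each), with a log2 fold change of -0.28, an SE of 0.09 and an edgeR adjusted p of 0.177. Rpa1, which coats single-stranded DNA, was at 71.6 ± 0.964 CPM in ecko skin and 79.8 ± 2.51 CPM in control skin (SD, n = 3 each), with a log2 fold change of -0.16 and an edgeR adjusted p of 0.222. Gins3 (-0.31) and Orc4 (-0.11) of the origin list, Mthfd1 (-0.11) and Shmt1 (0.13) of nucleotide synthesis, and Exo1 (-0.26) and Brca2 (0.18) of repair had adjusted p between 0.313 and 0.688.

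Regulators of G1 phase act before both waves. Of 26 G1 cyclins, E2F and Rb family genes none passed, with a median of 0.03. This list also holds MuvB genes and the B-MYB gene Mybl2, which belong to the later wave. The D-type cyclin gene Ccnd1 was at 97.8 ± 8.03 CPM in ecko skin and 95.7 ± 7.42 CPM in control skin (SD, n = 3 each, log2 fold change 0.03, 95% interval -0.15 to 0.21). Cdk4, its kinase partner, stood at -0.07 (interval -0.19 to 0.06) and Cdk2 at 0.07 (interval -0.08 to 0.22). Lin9 of the MuvB complex (0.22) and Rbl1, the p107 gene (0.15), had the smallest p of the list, with adjusted p of 0.339 and 0.361. Among CDK inhibitors 6 of 7 were tested and none passed. Cdkn1a, the p21 gene, was at 335 ± 10.9 CPM in ecko skin and 318 ± 14.7 CPM in control skin (SD, n = 3 each, log2 fold change 0.07, interval -0.07 to 0.21). Cdkn1b, the p27 gene (0.14), and Cdkn2c, the p18 gene (-0.13), had the smallest p, with adjusted p of 0.466 and 0.577. Ccnd1, Cdk4, Cdk2 and Cdkn1a were added to the genes named after their values were seen.

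Markers of cell types that could hold the dividing cells were read beside the mitotic sums. Of 13 endothelial markers 10 fell and none rose, with sums of 343 to 352 CPM in ecko skin and 522 to 557 CPM in control skin (1.08% of all genes tested were called lower and 0.686% higher). Without ecko 1 or without ecko 2 the count that fell was 6. Of the 7 basal keratinocyte markers none passed. The 10 hair matrix and shaft markers found in the table, of which 7 were tested and none passed, summed to 66.4, 62.5 and 54.0 CPM in ecko 1 to 3, against 57.2, 60.4 and 79.5 CPM in controls 1 to 3, and Shh and Krt35 were at 0 in at least 1 library. The 5 hair bulge markers, none of which passed, summed to 373 to 448 CPM in ecko skin and 415 to 505 CPM in control skin. Macrophage markers, none of 6 passing, summed to 545 to 556 CPM in ecko skin and 338 to 539 CPM in control skin. Of 6 lymphatic endothelial markers 3 fell (1 without ecko 1 or ecko 2), with sums of 165 to 182 CPM in ecko skin and 206 to 240.5 CPM in control skin. Of 5 T cell markers tested 1 rose, Foxp3, a count that was 0 when any library was left out, and the sums were 29.7 to 31.9 CPM in ecko skin and 26.9 to 30.9 CPM in control skin. Of 7 suprabasal keratinocyte markers 1 rose, Krt1, a count that was 3 without control 3 and 0 when any of the 5 other libraries was left out, with sums of 23555 to 26361.5 CPM in ecko skin and 20740 to 23281 CPM in control skin. None of 6 fibroblast markers passed, with sums of 23943 to 28134 CPM in ecko skin and 25549 to 31347 CPM in control skin. None of 5 Langerhans and dendritic cell markers passed, with sums of 158 to 168 CPM in ecko skin and 138 to 151 CPM in control skin. None of 4 neutrophil markers tested passed, with sums of 29.6 to 169 CPM in ecko skin and 22.4 to 39.0 CPM in control skin. Among the 6 remaining lists, 1 sebaceous gland marker rose (Awat1, a count of 0 without control 2 or any ecko library). In these lists 3 of 4 adipocyte markers fell (1 without ecko 1, ecko 3, control 1 or control 2). No erythroid, skeletal muscle, cartilage or melanocyte marker passed at the main setting. Some lists with no call there had calls under other settings. Skeletal muscle markers that fell numbered 2 without control 3 and 1 with the sex term. Without control 3, 1 erythroid and 1 cartilage marker also fell and 1 Langerhans and dendritic cell marker rose. With DESeq2, 2 melanocyte, 1 neutrophil and 1 basal keratinocyte marker rose, and 2 neutrophil markers rose without ecko 3. The part of any of these markers in the mitotic pattern was not tested.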

How the data were processed

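Libraries were made from poly(A)-selected Trizol RNA with random priming, per the labels' protocols. The authors deposited expected counts (estimated reads) for each gene in each library, per the file headers. Library totals differ and 10.5% of values are not whole. RSEM 1.3.1, Bowtie2 2.4.5 and HISAT2 2.2.1 appear in the submitters' processing notes with no role, as does GRCm38.p6. The sources used here do not give read length, annotation or strand setting.

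Counts were rounded, filtered with filterByExpr (minimum count 10; 14866 genes kept, 3556 removed), scaled by TMM and tested with the edgeR 4.0.16 quasi-likelihood test in R 4.3.3, genotype as the only term, Benjamini-Hochberg adjustment over all genes and a threshold of 0.05. The SE was the log2 fold change divided by the square root of F. The biological coefficient of variation was 8.80%. CPM used TMM-scaled totals, and class means used log2(CPM + 1). Libraries of a group differed by 4.89 to 14.8 times the counting variance, so none agreed within sampling noise. Same-numbered libraries were not treated as pairs. The correlation of their deviations was 0.05, 0.05 and 0.17, which cannot exclude pairing. The 0.17 was between ecko 3 and control 3, both taken as female, so shared sex and pairing cannot be told apart there. Members and lists were chosen with earlier results of these data known, so no list was tested. Full statistics were given for the 6 members of each class with the smallest p, and values per library for these and Mki67, Top2a, Ccnb1, Cdk1, Pcna, Mcm2, Ccne1 and E2f1. From the other lists every called gene or the 2 with the smallest p were named. Levels per kilobase used the union of GENCODE vM21 exons. Others, such as Cenpf, Foxm1, Ccnd1, Cdk4, Cdk2 and Cdkn1a, were added after values were seen. Alternatives were DESeq2 1.42.0, limma-voom (limma 3.58.1), upper-quartile or RLE factors, no filter, a filter of 1 CPM in 3 libraries, a sex term, a replicate block, leaving out each library, and for class means a pseudocount of 0.1. Male libraries alone and the genotype-by-sex interaction were added after the data were seen. A library with at least 500 reads of 4 Y-linked genes was taken as male.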

Additional observations from a re-analysis of the deposited data

How the results depend on the processing

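None of the 45 genes was called under any of the 15 alternative settings of the test. At the main setting 1.76% of all genes tested were called. The smallest adjusted p of the 45 in a setting ran from 0.192 (Uhrf1, without control 3) to 0.463. The mitotic median lay between 0.02 and 0.24 and the S-phase median between -0.10 and 0.00 when each library was left out, and the class difference between -0.28 and -0.05. For Gins2 leaving out a library gave -0.24 to 0.0033, for Cdk1 -0.048 to 0.25 and for Ccne1 -0.23 to 0.15, so their signs depended on single libraries, and in male libraries alone Cdk1 stood at -0.11 and Ccne1 at 0.11. Over all genes, calls higher in ecko numbered 195 with DESeq2 and 63 with the replicate block, and 22 to 165 when a library was left out. Calls lower in ecko numbered 91 in male libraries alone and 34 to 242 when a library was left out. With the replicate block the medians were 0.12 and -0.06 and no member was called. The labels do not say whether the replicate numbers mark pairs. Ecko 1 correlated at 0.060 with control 2 and at 0.053 with control 1, too close to decide it. The block ended the Btg2 call (adjusted p 0.092). The causes were not tested. Counts down to 43 reads, 3 libraries a group and 1 female library in each limit what could be detected.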
